A study of Arabidopsis thaliana with 3 samples.

Results

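The nuclear photosynthesis genes examined here are 46 loci that encode proteins of the chloroplast light reactions or of Rubisco. They were taken as a list of TAIR10 loci by name, with no measured value, from 27444 protein-coding genes of the nuclear chromosomes. Earlier results of these data were known when the list was chosen. They comprise 6 LHCA genes, 14 LHCB genes, 12 nuclear PSA genes, 10 nuclear PSB genes and 4 RBCS genes. The question addressed was whether these genes of leaf function keep open promoters in root, measured against all protein-coding genes.

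ATAC-seq was performed on 3 libraries of 1 group, Arabidopsis thaliana Col-0 roots at 14 days, numbered libraries 1 to 3 as in the labels. In ATAC-seq the transposase Tn5 inserts adapters preferentially into DNA that is free of nucleosomes. Nuclei came from INTACT plants, in which a 35S-driven fusion of the RanGAP1 WPP domain, GFP and a biotin acceptor marks the nuclear envelope and allows capture on streptavidin. All libraries carry this transgene, the seedlings grew upright on plates under a daily light period, and no leaf library was analysed here. The libraries are biological repeats by the study's description and were made from different numbers of nuclei, fewest in library 1 and most in library 3. The spread between them therefore holds repeat and nuclear input together, which cannot be told apart. The signal is an average over all captured root nuclei, so a promoter open in a few cells and one partly open in many cannot be told apart.

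Light-harvesting proteins bind chlorophyll and pass excitation energy to photosystem I (LHCA) or mainly photosystem II (LHCB). PSA and PSB proteins are subunits of photosystems I and II, and RBCS proteins are the small subunit of Rubisco, the enzyme that fixes CO2. In green tissue these genes are transcribed strongly in light, whereas most root plastids are not green. GLK transcription factors, HY5 and the clock protein CCA1 are known regulators of many of them.

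Promoter signal is the mean read count of the 100-bp windows centred within 400 bp of the transcription start site (TSS), divided by the mean over all windows of that library. A value of 1 is thus the genome average. The library means were between 12.96 and 23.88 counts per window, and the members' promoter windows held an estimated 12 to 426 reads each. Of the root markers, CASP1, SCR, SHR, EXPA7, RSL4 and COBL9 (listed as SHV2 in the annotation) had mean promoter signals between 1.19 and 1.73. WOX5, PLT1, PLT2 and SMB were between 0.54 and 0.90. The 3 leaf epidermis regulators SPCH, MUTE and FAMA averaged 0.38 to 0.64. A peak in all 3 libraries was called at 2 of the 10 root markers, SCR and SHR, and at none of the leaf epidermis genes, against 52.3% of all protein-coding genes.

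In root, promoter accessibility of the photosynthesis genes was about that of protein-coding genes as a whole. Their median promoter signal was 1.46, 1.48 and 1.53 in libraries 1, 2 and 3, against 1.31, 1.44 and 1.33 for all protein-coding genes. The mean of these medians was 1.49 ± 0.04 for the members and 1.36 ± 0.07 for all protein-coding genes (SD, n = 3), and the members' median was higher in 3 of 3 libraries. The median member lay at percentile 57.4, 51.8 and 62.0 of all protein-coding genes in the 3 libraries. Since there is 1 group, no test across conditions applies, and a sign-flip test over 3 libraries cannot go below a two-sided p of 0.25, so none is given.

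Promoter signal exceeded the library mean in all 3 libraries at 31 of 46 members (67.4%), against 63.3% of protein-coding genes. It exceeded the median of protein-coding genes in all 3 libraries at 22 members (47.8%), against 43.7% of protein-coding genes, and was below it in all 3 at 21 members (45.7%), against 43.8%. The remaining 3 members, PSAH1, PSBP1 and PSBW, lay on different sides of the median in different libraries. The highest 10% of promoters in every library held 6 members, LHCA4, LHCB4.3, PSAD1, PSAG, PSAK and PSBX, which is 13.0% of members against 7.4% of protein-coding genes. The lowest 10% in every library held 2 members, RBCS1B and RBCS2B, or 4.35% against 6.73% of protein-coding genes.

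A peak called by the authors lay between 1000 bp upstream of the TSS and the gene end in 24, 36 and 34 of the 46 members in libraries 1, 2 and 3. These are 52.2%, 78.3% and 73.9%, beside 55.4%, 68.7% and 64.5% of protein-coding genes. All 24 members with a peak in library 1 also had one in libraries 2 and 3, so 52.2% of members had a peak in all 3 libraries, against 52.3% of protein-coding genes. No library had a peak at 9 members (19.6%), against 27.1% of protein-coding genes. Within 400 bp of the TSS, 22 members (47.8%) had a peak in all 3 libraries, against 39.5% of protein-coding genes. The members are shorter, with a median gene length of 1411 bp against 2078 bp for all protein-coding genes, so the searched region was also shorter.

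A stretch covered by a peak of each library was present at 23 members, against 49.7% of protein-coding genes. Of the members with a peak in all 3 libraries, LHCA3 alone had no such stretch, as its peak in library 3 lay elsewhere. LHCB1.4 and LHCB1.5 lie head to head with starts 1039 bp apart and share their peaks, so they are not independent. The summits were nearer to LHCB1.5, at 58, 137 and 110 bp upstream of its start in libraries 1 to 3. A further peak in library 1 lay 118 bp upstream of LHCB1.4. Another protein-coding gene reached into the 400 bp upstream of the TSS at 18 members (39.1%), against 31.5% of protein-coding genes, and signal at such members cannot be assigned to 1 of the genes.

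**Figure D1:**
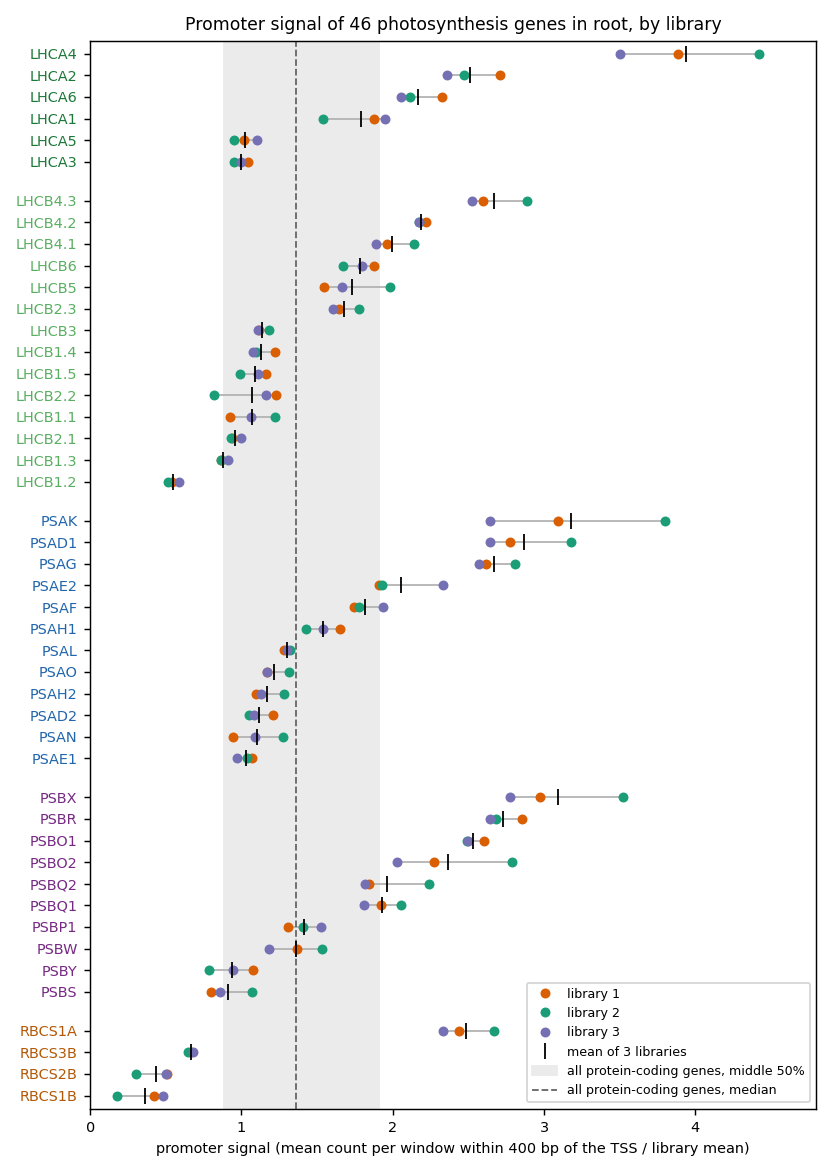
Promoter signal of each member (x axis, mean count per window within 400 bp of the TSS divided by the library mean), with 1 point per library, a tick at the mean of the 3 libraries, and genes grouped by family along the y axis. LHCA4 is highest at 3.93 and RBCS1B lowest at 0.36, while the dashed line marks the median of all protein-coding genes at 1.36 and the grey band their middle 50%.

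The order of the members was stable between libraries. Spearman's rho over the 46 members, given as a description of genes that share libraries, was 0.95 between libraries 1 and 2, 0.98 between 1 and 3, and 0.96 between 2 and 3. The highest library exceeded the lowest by a median of 1.15-fold within a member, and by 2.75-fold at most, at RBCS1B, which had the fewest reads. The mean signals ran over a wide range, with LHCA4 at 3.93, PSAK at 3.18 and PSBX at 3.09 at the top, and RBCS2B at 0.44 and RBCS1B at 0.36 at the bottom.

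Around the start, the mean profile of the members was highest 25 bp upstream of the TSS, at 2.15 ± 0.22 times the library mean, whereas that of all protein-coding genes was highest at the TSS, at 1.78 ± 0.21 (SD, n = 3). Relative to positions 900 to 1000 bp away, these maxima were 1.88 ± 0.23-fold and 1.58 ± 0.18-fold. Downstream of the TSS the members stood further above all protein-coding genes than upstream of it. The median signal over the 400 bp downstream was 1.66 ± 0.02 for members and 1.30 ± 0.02 for all protein-coding genes. Over the 400 bp upstream it was 1.39 ± 0.07 and 1.34 ± 0.13. Signal was higher downstream than upstream in all 3 libraries at 20 members (43.5%) against 30.7% of protein-coding genes. The GC content of the 800 bp around the TSS, which can affect Tn5 and PCR, had a median of 38.7% at members and 35.5% at all protein-coding genes, and its part in these differences was not tested.

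**Figure D2:**
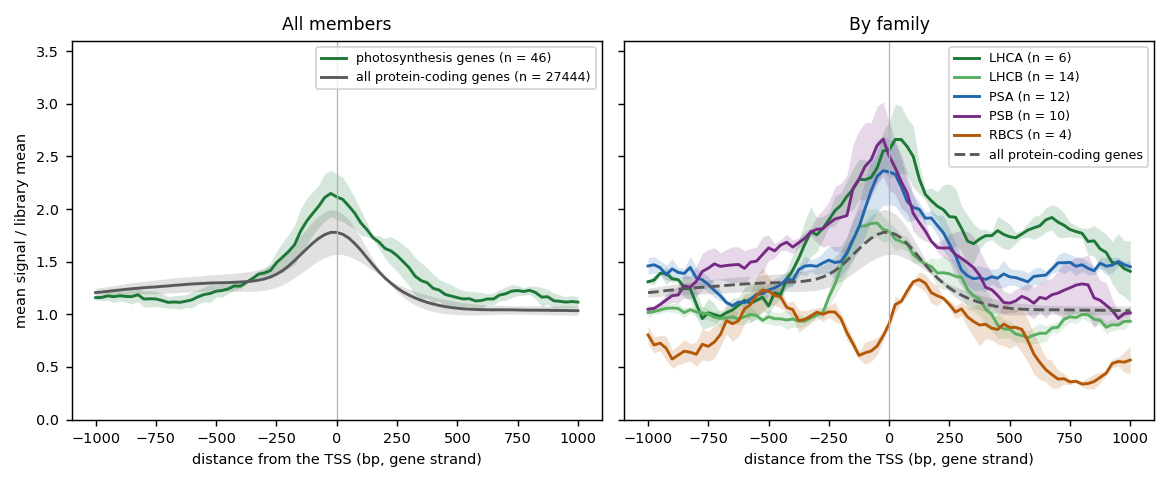
Mean signal over the library mean (y axis) by distance from the TSS on the gene strand (x axis, bp), for the 46 members beside all 27444 protein-coding genes on the left and for the 5 families on the right. Lines are means of 3 libraries and shading is 1 SD, and the members reach 2.15 near the TSS where all protein-coding genes reach 1.78.

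The promoters were then read for sequence elements linked to light and clock regulation, in the 250 bp upstream of the annotated start. The G-box (CACGTG), bound by bZIP and bHLH factors such as HY5 and PIFs, was present at 9 members (19.6%), against 6.49% of protein-coding genes. The I-box (GATAAG), a common element of light-regulated promoters, was present at 10 members (21.7%), against 12.3%. CCAATC, an element bound by GLK factors, was present at 11 members (23.9%), against 10.2%, and 7 of these were LHCB genes and 3 LHCA genes. The CCA1 binding site (AAAAATCT) was found at 5 members (10.9%), against 6.69%. The evening element (AAAATATCT) was found only at LHCA5 among the members (2.17%), against 2.36% of protein-coding genes. TATAAA in the last 60 bp on the gene strand was found at 5 members (10.9%), against 12.7%. All but TATAAA were searched on both strands, none of these words contains another, and a match is a description of the letters and not a bound site.

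The sequences of 7 promoters are shown, because they pair high and low accessibility in root with the presence or absence of these elements. They are the highest member (LHCA4), a member high in the PSA family (PSAD1), the PSB member with the most element types (PSBQ2), the highest gene for major LHCII proteins (LHCB2.3), the lowest LHCB gene (LHCB1.2), and the RBCS genes RBCS1A and RBCS2B. Each runs 5′ to 3′ on the gene strand over the 250 bp that end at the base before the TSS, read from the RefSeq TAIR10.1 genome, and capitals mark the elements named above.
LHCA4, chr3:17495034-17495283, reverse strand: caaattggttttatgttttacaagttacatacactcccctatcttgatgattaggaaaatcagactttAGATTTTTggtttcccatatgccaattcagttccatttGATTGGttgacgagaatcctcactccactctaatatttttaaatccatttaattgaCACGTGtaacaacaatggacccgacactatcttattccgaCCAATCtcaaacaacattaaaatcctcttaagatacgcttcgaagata
PSAD1, chr4:1230165-1230414, reverse strand: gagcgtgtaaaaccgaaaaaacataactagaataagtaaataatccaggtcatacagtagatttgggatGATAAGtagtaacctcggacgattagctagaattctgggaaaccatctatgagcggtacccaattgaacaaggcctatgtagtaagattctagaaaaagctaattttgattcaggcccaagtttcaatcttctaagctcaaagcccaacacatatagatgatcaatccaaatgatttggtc
PSBQ2, chr4:2673244-2673493, reverse strand: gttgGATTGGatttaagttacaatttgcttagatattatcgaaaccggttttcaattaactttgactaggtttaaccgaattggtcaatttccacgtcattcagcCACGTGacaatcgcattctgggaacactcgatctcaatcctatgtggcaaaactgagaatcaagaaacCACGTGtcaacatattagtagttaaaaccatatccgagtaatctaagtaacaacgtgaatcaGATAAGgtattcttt
LHCB2.3, chr3:10255656-10255905, forward strand: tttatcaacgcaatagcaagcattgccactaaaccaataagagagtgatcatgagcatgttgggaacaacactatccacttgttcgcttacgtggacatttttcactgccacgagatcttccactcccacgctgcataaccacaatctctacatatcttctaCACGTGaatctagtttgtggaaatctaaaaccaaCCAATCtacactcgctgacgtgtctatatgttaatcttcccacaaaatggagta
LHCB1.2, chr1:10473503-10473752, reverse strand: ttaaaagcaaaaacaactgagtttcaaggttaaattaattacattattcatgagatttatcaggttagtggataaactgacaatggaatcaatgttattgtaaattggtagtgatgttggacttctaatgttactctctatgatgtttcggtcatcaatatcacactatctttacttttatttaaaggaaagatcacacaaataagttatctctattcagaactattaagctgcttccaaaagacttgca
RBCS1A, chr1:25049668-25049917, reverse strand: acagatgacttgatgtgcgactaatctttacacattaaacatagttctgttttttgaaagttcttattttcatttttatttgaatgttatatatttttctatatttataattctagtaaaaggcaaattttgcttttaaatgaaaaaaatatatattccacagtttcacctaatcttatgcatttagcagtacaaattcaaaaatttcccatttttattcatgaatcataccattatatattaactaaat
RBCS2B, chr5:15382072-15382321, reverse strand: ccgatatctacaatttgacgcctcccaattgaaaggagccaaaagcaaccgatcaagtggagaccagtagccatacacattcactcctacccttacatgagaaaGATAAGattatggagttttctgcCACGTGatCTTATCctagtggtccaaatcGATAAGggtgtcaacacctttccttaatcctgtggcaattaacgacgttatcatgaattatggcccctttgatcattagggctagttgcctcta

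LHCA4 holds a G-box 88 to 83 bp upstream of the TSS, CCAATC 48 to 43 bp upstream and again on the reverse strand from 144 to 139 bp, and a CCA1 binding site on the reverse strand from 182 to 175 bp upstream. PSBQ2 holds 2 G-boxes, starting 145 and 77 bp upstream, an I-box starting 15 bp upstream and CCAATC on the reverse strand. LHCB2.3 holds its G-box at the same distance from the annotated start as LHCA4, 88 to 83 bp upstream, with CCAATC from 54 to 49 bp. The annotated start of LHCB2.3 is its first coding base, whereas that of LHCA4 lies 260 bp before its own. The equal distances are therefore measured from different features. RBCS2B, with 0.44 times the library mean, holds a G-box from 123 to 118 bp and 3 I-boxes starting 146, 115 and 94 bp upstream. RBCS1A, with 2.48 times the library mean, holds none of these words in this window. RefSeq also annotates an RBCS1A transcript that starts 243 bp downstream of the gene start. Measured from the most downstream start before the coding sequence, all 4 RBCS genes hold an I-box, and RBCS1A, RBCS2B and RBCS3B a G-box. With that start, 13 members (28.3%) hold a G-box, against 6.79% of protein-coding genes, and 16 (34.8%) an I-box, against 12.6%.

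The LHCA proteins form the antenna of photosystem I, and their genes had a family median of 1.98 ± 0.14 times the library mean (SD of 3 libraries). The median of protein-coding genes was exceeded in every library by 4 of the 6 genes, against 43.7% of protein-coding genes, and LHCA3 and LHCA5 were below it in every library. LHCA4 (AT3G47470) had 3.89, 4.42 and 3.50 in libraries 1, 2 and 3, a mean of 3.93 ± 0.46 (SD, n = 3). This placed it at percentile 99.5, 99.5 and 99.7 of all protein-coding genes. A broad peak spanned its TSS in each library, beginning 366, 364 and 366 bp upstream, with summits 45, 42 and 43 bp downstream of the TSS and a fold enrichment of 4.03, 5.19 and 3.78. Its signal was equally high on both sides of the start, 3.99 ± 0.60 upstream and 3.88 ± 0.33 downstream.

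LHCA2 (AT3G61470) followed with a mean of 2.51 ± 0.18 and LHCA6 (AT1G19150) with 2.17 ± 0.14, both with peaks in all 3 libraries. LHCA6, which with LHCA5 links photosystem I to the chloroplast NDH complex, shares its upstream region with a divergent gene. LHCA1 (AT3G54890), the partner of LHCA4 in the antenna belt, averaged 1.79 ± 0.22 and had a peak in library 3 only. LHCA4 exceeded LHCA1 by 2.07, 2.87 and 1.80-fold in libraries 1 to 3. LHCA5 (AT1G45474) had 1.01, 0.95 and 1.11, and LHCA3 (AT1G61520), the lowest of the family, had 1.04, 0.95 and 1.00. These last genes overlapped in their library values and lay below the median of protein-coding genes in all 3 libraries. LHCA3 has another annotated start 358 bp downstream of the gene start, around which its mean signal was 1.23 ± 0.07.

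Within the LHCB family the genes for the minor antenna were more accessible than most of those for the major antenna. LHCB4 (CP29), LHCB5 (CP26) and LHCB6 (CP24) are monomeric proteins between the photosystem II core and the trimers, and LHCB1, LHCB2 and LHCB3 form the LHCII trimers. All 5 genes of LHCB4 to LHCB6 were above the median of protein-coding genes in every library, with a median of 2.00 ± 0.13. All 5 LHCB1 genes were below it in every library, with a median of 0.99 ± 0.07. Of the 3 LHCB2 genes 1 was above it and 2 were below. The family median was 1.19 ± 0.05. In every library 6 of the 14 genes were above the median of protein-coding genes and 8 were below it. The shares of all protein-coding genes were 43.7% and 43.8%.

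LHCB4.3 (AT2G40100) was the highest of the family at 2.60, 2.89 and 2.52 in libraries 1, 2 and 3, a mean of 2.67 ± 0.19. It exceeded LHCB4.1 (AT5G01530) by 1.32, 1.35 and 1.34-fold and LHCB4.2 (AT3G08940) by 1.17, 1.33 and 1.16-fold. LHCB4.1 and LHCB4.2 averaged 2.00 ± 0.13 and 2.19 ± 0.03, and all 3 LHCB4 genes had peaks in every library. LHCB6 (AT1G15820) averaged 1.78 ± 0.10 and LHCB5 (AT4G10340) 1.73 ± 0.23, which overlapped, and both had peaks in libraries 2 and 3 only. LHCB6, LHCB5 and the LHCB4.1 and LHCB4.2 genes have another protein-coding gene within 400 bp upstream, whereas LHCB4.3 does not.

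The LHCB1 genes encode the most abundant LHCII protein and were low. LHCB1.2 (AT1G29910), the lowest of the LHCB genes, had 0.54, 0.51 and 0.59 in libraries 1, 2 and 3, at percentile 8.4, 11.4 and 9.2 of protein-coding genes, and no peak. The nearby LHCB1.1 (AT1G29920) had 0.93, 1.22 and 1.06, and LHCB1.3 (AT1G29930) 0.86, 0.86 and 0.91, so LHCB1.2 was below both in every library. LHCB1.3 had no peak, and LHCB1.1 had narrow peaks with summits 201 and 24 bp upstream of the TSS in libraries 2 and 3. LHCB1.1 had 1.41 ± 0.24 over the 400 bp upstream and 0.73 ± 0.09 over the 400 bp downstream. LHCB1.4 (AT2G34430) averaged 1.13 ± 0.08 and LHCB1.5 (AT2G34420) 1.09 ± 0.09, which overlapped. These genes are close copies of each other, and reads with more than 1 genomic position had been discarded by the authors.

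Uniqueness at all members was measured as the share of 61-bp stretches in the promoter window that occur once in the genome, as reads with several positions were not counted. With exact matches 39 of 46 members were fully unique, and 90.0% of protein-coding genes were. The lowest were PSBS at 88.8% and LHCB1.1 at 93.0%. When up to 2 mismatches were allowed, 33 members were fully unique and 7 were under 95%, namely LHCB1.1 (80.8%), LHCB1.2 (94.0%), LHCB1.3 (85.3%), LHCB1.5 (90.0%), PSBS (64.8%), RBCS1B (82.6%) and RBCS2B (86.1%). LHCB1.2, at 94.0%, had a mean promoter signal of 0.55, and RBCS3B, at 100%, had 0.66. The part of uniqueness in the low values was not tested. Over windows unique by exact match alone, the members' median was 1.52, against 1.39 for all protein-coding genes. With this choice LHCB1.1 moved from 1.07 to 1.34 ± 0.23, so its low downstream value depends on it. LHCB1.2 was at 0.56 ± 0.03 and LHCB1.5 at 1.13 ± 0.08.

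LHCB2.3 (AT3G27690) had 1.65, 1.77 and 1.61 in libraries 1, 2 and 3, with peaks just upstream of the TSS in each library. Its signal lay upstream, 2.17 ± 0.28 against 1.18 ± 0.11 downstream of the annotated start, which is its first coding base. It exceeded LHCB2.1 (AT2G05100) by 1.76, 1.90 and 1.61-fold and LHCB2.2 (AT2G05070) by 1.34, 2.17 and 1.38-fold. LHCB2.2 and LHCB2.1 averaged 1.07 ± 0.22 and 0.96 ± 0.04, which overlapped. LHCB3 (AT5G54270) averaged 1.14 ± 0.04 with its signal downstream, 1.49 ± 0.08 against 0.78 ± 0.09 upstream. A peak with its summit 125, 112 and 111 bp downstream of the TSS was called there in libraries 1 to 3.

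**Figure D3:**
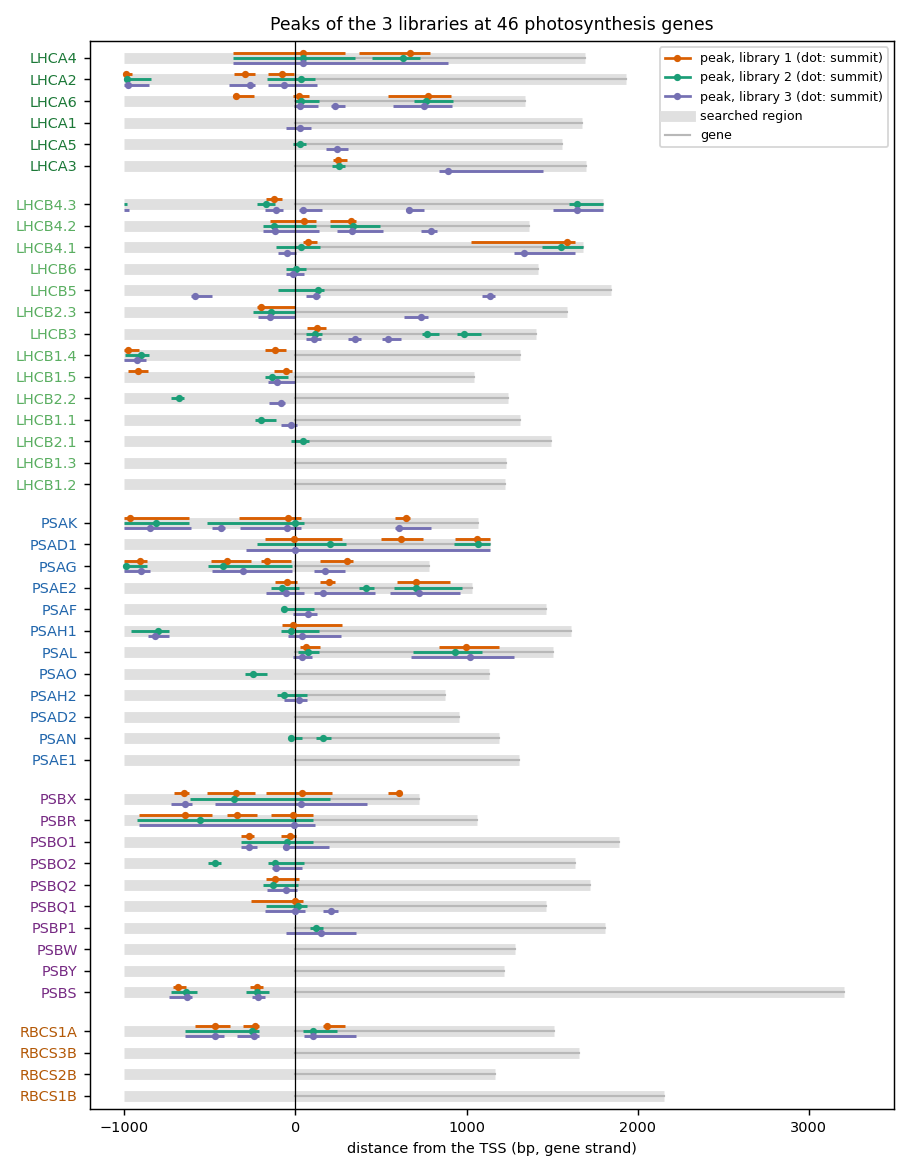
Peaks called in each library (coloured bars, with a dot at the summit) at the 46 members, by distance from the TSS on the gene strand (x axis, bp), with genes in the order of the plot of promoter signal. Grey bands are the searched regions from 1000 bp upstream to the gene end, and 9 members, among them RBCS1B, RBCS2B and RBCS3B, hold no peak.

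The nuclear PSA genes encode peripheral subunits of photosystem I. The family median was 1.42 ± 0.05, with 5 of 12 genes above the median of protein-coding genes in every library and 6 below it, against 43.7% and 43.8% of protein-coding genes. PSAK (AT1G30380), a membrane subunit on the antenna side, was highest at 3.09, 3.80 and 2.65 in libraries 1, 2 and 3, at percentile 97.3, 98.3 and 96.3. Its signal lay upstream, 4.17 ± 0.73 against 2.19 ± 0.44 downstream of the TSS. PSAG (AT1G55670), a membrane subunit related to PSAK, averaged 2.67 ± 0.13, also more upstream at 3.22 ± 0.46 than downstream at 2.12 ± 0.23, and a neighbouring gene reaches into its upstream 400 bp.

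Paralogs of the stromal subunits differed. PSAD, the docking site of ferredoxin, is encoded by PSAD1 (AT4G02770) and PSAD2 (AT1G03130). PSAD1 had 2.78, 3.18 and 2.64 in libraries 1, 2 and 3, and PSAD2 had 1.21, 1.05 and 1.08. The groups of library values did not overlap, and the ratio was 2.59 ± 0.39 (SD, n = 3). A peak over the TSS of PSAD1 was called in every library and none at PSAD2. PSAE, which also binds ferredoxin, showed the same kind of split. PSAE2 (AT2G20260) had 1.91, 1.93 and 2.33 with peaks in all libraries, and PSAE1 (AT4G28750), the lowest of the PSA genes, had 1.07, 1.04 and 0.97 with none. Their ratio was 2.01 ± 0.34. PSAE2 shares its upstream region with a divergent gene, and another gene reaches into the upstream 400 bp of PSAE1 and of PSAD2. PSAH, where LHCII docks during state transitions, was closer between copies. PSAH1 (AT3G16140) averaged 1.54 ± 0.11 and PSAH2 (AT1G52230) 1.17 ± 0.10, a ratio of 1.51, 1.11 and 1.37 in libraries 1, 2 and 3. PSAH2 shares its upstream region with a divergent gene, whereas PSAH1 does not.

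PSAF (AT1G31330), the plastocyanin docking subunit, averaged 1.82 ± 0.10 and was above the median of protein-coding genes in every library, whereas PSAL, PSAO and PSAN were below it in every library. PSAL (AT4G12800), needed for LHCII docking with PSAH, averaged 1.30 ± 0.02, with 1.82 ± 0.18 downstream and 0.79 ± 0.17 upstream of the start. The strongest peak of PSAL lay in the gene body, with summits 994, 935 and 1018 bp downstream of the TSS and a fold enrichment of 5.83, 4.82 and 4.27, the highest of any PSA gene in libraries 1 and 3. PSAO (AT1G08380) averaged 1.22 ± 0.08 and PSAN (AT5G64040), a lumenal subunit, 1.10 ± 0.16, each with peaks in library 2 only.

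The nuclear PSB genes had a median of 1.95 ± 0.18, and 6 of 10 genes were above the median of protein-coding genes in every library, against 43.7% of protein-coding genes. PSBX (AT2G06520), a small membrane subunit, was highest at 2.97, 3.52 and 2.78 in libraries 1, 2 and 3, and a neighbouring gene reaches into its upstream 400 bp. PSBR (AT1G79040), which helps hold the oxygen-evolving proteins, averaged 2.73 ± 0.11, with 3.42 ± 0.25 upstream and 2.03 ± 0.27 downstream of the start. Its peaks in libraries 2 and 3 covered more than 900 bp upstream of the TSS.

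Among genes of the oxygen-evolving complex of photosystem II, PSBO1, PSBO2, PSBQ1 and PSBQ2 exceeded the median of protein-coding genes in every library. PSBP1 did not, and 43.7% of all protein-coding genes did. PSBO1 (AT5G66570), which with PSBO2 stabilises the manganese cluster, had 2.61, 2.49 and 2.50 in libraries 1 to 3. PSBO2 (AT3G50820) had 2.28, 2.79 and 2.03, so the order of the paralogs turned in library 2 and their ratio, 1.09 ± 0.18, was within its spread of 1. Peaks were called at PSBO1 in all libraries and at PSBO2 in libraries 2 and 3. PSBQ1 (AT4G21280) and PSBQ2 (AT4G05180) averaged 1.93 ± 0.12 and 1.97 ± 0.24, a ratio of 0.99 ± 0.06, both with a peak at the TSS in every library. PSBQ1 shares its upstream region with a divergent gene, whereas PSBQ2 does not. PSBP1 (AT1G06680) was lower at 1.41 ± 0.11, and a neighbouring gene overlaps its upstream region. The PSBO and PSBQ paralogs thus differed by less than the spread between libraries, which does not show that they are equal, whereas the PSAD and PSAE paralogs differed by more.

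PSBW (AT2G30570) and PSBY (AT1G67740), small membrane subunits, averaged 1.36 ± 0.18 and 0.94 ± 0.14 and had no peak in any library. PSBS (AT1G44575), the sensor of lumen acidity in photoprotection, was lowest of the family at 0.80, 1.07 and 0.86 in libraries 1, 2 and 3. Its annotated gene start is 1475 bp upstream of the start nearest to the coding sequence. Around that nearer start the mean signal was 1.19 ± 0.09. Signal within 400 bp downstream of the gene start was 0.26 ± 0.09 and upstream 1.56 ± 0.37, with peaks upstream in every library. Over windows unique by exact match alone, its mean was 1.45 ± 0.33, so the value of this gene moved by over 1.5 times with this choice.

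Of the 4 RBCS genes, 1 was accessible and 3 were low. RBCS1A (AT1G67090) lies on chromosome 1, and RBCS1B (AT5G38430), RBCS2B (AT5G38420) and RBCS3B (AT5G38410) lie in tandem on chromosome 5 with the outer starts 6678 bp apart. RBCS1A had 2.44, 2.67 and 2.34 in libraries 1, 2 and 3, at percentile 90.6, 88.3 and 92.0 of protein-coding genes. RBCS3B had 0.67, 0.65 and 0.68. RBCS2B had 0.51, 0.31 and 0.50. RBCS1B had 0.42, 0.17 and 0.48, at percentile 4.6, 2.6 and 5.6. RBCS1A was thus above the tandem genes in every library with no overlap, by 3.75 ± 0.35-fold over RBCS3B, 6.08 ± 2.30-fold over RBCS2B and 8.63 ± 5.77-fold over RBCS1B (SD, n = 3). The ratio to RBCS1B was 5.75, 15.3 and 4.86 in libraries 1, 2 and 3, so that library 2, with 12 reads at RBCS1B, sets much of the mean, which was 5.31 without it. Peaks were called at RBCS1A in all 3 libraries and at none of the tandem genes in any.

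The low values rest on few reads. RBCS1B held an estimated 28, 12 and 58 reads in libraries 1, 2 and 3, and its 95% counting intervals reached 0.61, 0.31 and 0.62 times the library mean at the upper end. Those of RBCS1A began at 2.07, 2.29 and 2.07. The intervals are exact Poisson intervals and cover counting error only. The windows of RBCS1B and RBCS2B were 82.6% and 86.1% unique with up to 2 mismatches, and those of RBCS3B and RBCS1A 100%. The part of uniqueness in the low values of the tandem genes was not tested.

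At RBCS1A the accessible stretches did not lie at the annotated start. The mean profile was highest 500 bp upstream, at 3.85 ± 0.51, and dipped to 0.81 ± 0.17 at 75 bp upstream. It rose again to 3.38 ± 0.49 at 125 bp downstream, ahead of the other annotated start at 243 bp. Peaks had summits 239, 255 and 245 bp upstream and 183, 102 and 103 bp downstream of the gene start in libraries 1 to 3. Libraries 1 and 3 had a further peak, with its summit 470 and 468 bp upstream. The upstream peak of library 2 ran from 644 to 216 bp upstream. Centred on the other start, its promoter signal was 2.17 ± 0.05 and that of RBCS3B, which has another start 226 bp downstream, was 0.82 ± 0.01.

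**Figure D4:**
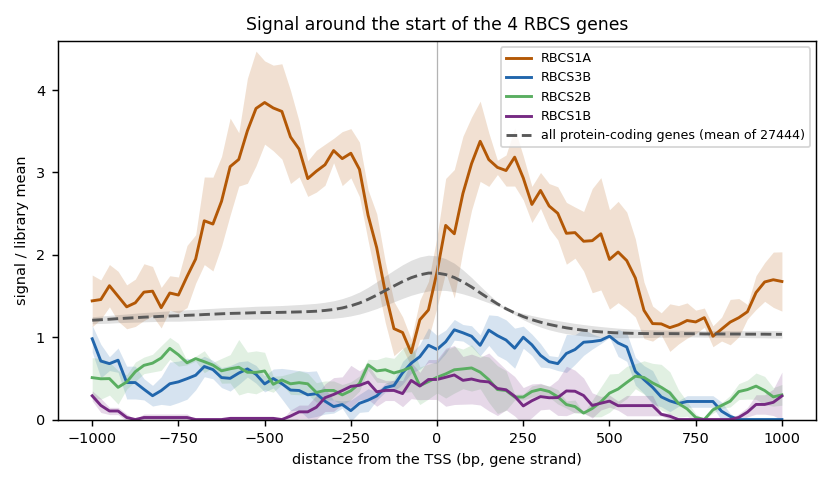
Signal over the library mean (y axis) by distance from the annotated start on the gene strand (x axis, bp) for RBCS1A, the 3 tandem RBCS genes and the mean of all protein-coding genes, as means of 3 libraries with 1 SD shaded. RBCS1A reaches 3.85 at 500 bp upstream, while the tandem genes stay near or below the library mean throughout.

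Other lists of photosynthesis genes had medians above the members' 1.49 ± 0.04, for chlorophyll synthesis by less than the spread between libraries. The 14 genes of chlorophyll synthesis had a median of 1.55 ± 0.11, and 9 had a peak in all 3 libraries, against 52.3% of protein-coding genes. In library 1 their median, 1.43, was below the members' 1.46. HEMA1, which catalyses the first committed step of tetrapyrrole synthesis, was highest at 3.26 ± 0.69, and the protochlorophyllide reductases PORA and PORB were at 0.96 ± 0.07 and 1.14 ± 0.23 without a peak. The 11 genes of electron transport and ATP synthase had a median of 1.88 ± 0.24, and 7 had a peak in all 3 libraries. PETC, the Rieske protein, was at 2.97 ± 0.21. The 12 Calvin cycle genes had a median of 1.72 ± 0.11, and 7 had a peak in all 3 libraries. Phosphoribulokinase (PRK) was at 2.88 ± 0.42 and sedoheptulose bisphosphatase (SBPASE) at 1.17 ± 0.07. All these medians were above the 1.36 ± 0.07 of protein-coding genes.

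Regulators of the photosynthesis genes differed from each other. HY5, which promotes light responses in shoot and root, had 3.45, 3.16 and 2.62 in libraries 1, 2 and 3. GLK1 (listed as GPRI1), GNC and CGA1 averaged 0.58 ± 0.16, 0.63 ± 0.10 and 0.57 ± 0.02, and GLK2 1.07 ± 0.18 with peaks in all libraries. Against 13 PIP aquaporin genes, many of which act in root water uptake, the photosynthesis genes were lower, with medians of 1.49 ± 0.04 and 1.72 ± 0.15. The PIP medians were 1.79, 1.82 and 1.55 in libraries 1, 2 and 3. In library 3 that of the photosynthesis genes was close, at 1.53. Against 13 floral and shoot identity genes, such as AG and STM, the photosynthesis genes were higher, with medians of 1.49 ± 0.04 and 0.78 ± 0.07. The lists are small and were not tested against each other.

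**Figure D5:**
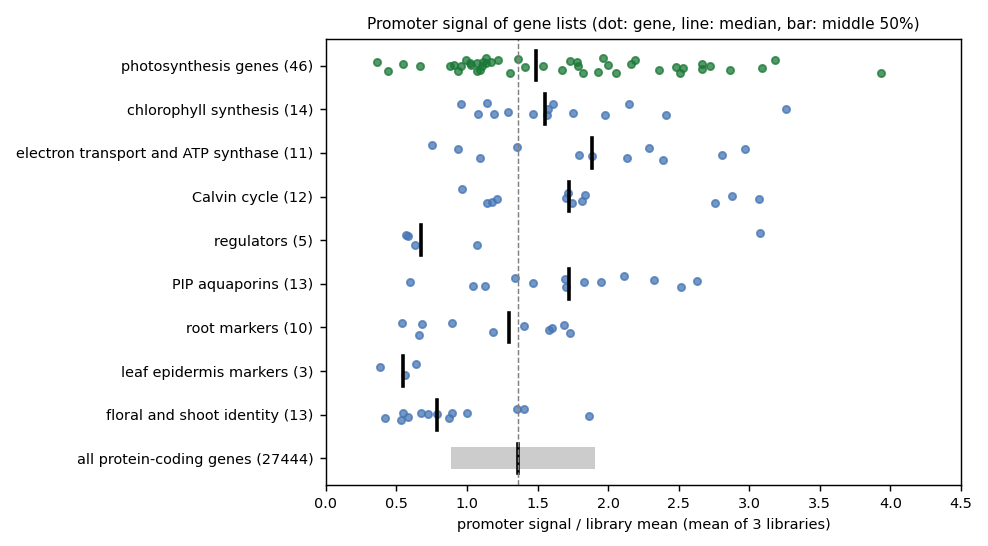
Promoter signal over the library mean (x axis, mean of 3 libraries per gene) for the 46 photosynthesis genes, for related gene lists and for all protein-coding genes. Dots are genes, black lines are the means of the 3 library medians, and the grey bar spans the middle 50% of protein-coding genes, so that the photosynthesis genes centre on 1.49 and the floral and shoot identity genes on 0.78.

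A stricter peak threshold left fewer members. With a −log10 q of at least 5 required in every library, 14 members kept a peak in all 3 libraries (30.4%), against 32.7% of protein-coding genes. These were LHCA2, LHCA4, LHCA6, LHCB4.1, PSAD1, PSAE2, PSAG, PSAK, PSAL, PSBO1, PSBQ1, PSBR, PSBX and RBCS1A. Of the 14 LHCB genes, LHCB4.1 alone was among them. Its peaks that passed had summits 1589, 1551 and 1336 bp downstream of the TSS in libraries 1 to 3. Those of PSAL had summits 994, 935 and 1018 bp downstream. At both genes the peaks near the TSS were below this threshold in every library, so neither kept a promoter peak. The fold enrichment of the best peak of a member had a median of 3.24, 3.35 and 2.67 in libraries 1, 2 and 3, against 3.35, 3.62 and 2.84 over protein-coding genes with a peak. Summits of the members' peaks lay within 400 bp of the TSS in 65.4%, 62.5% and 64.6% of cases, against 51.4%, 50.4% and 48.0% for protein-coding genes. The members are shorter, with a median length of 1411 bp against 2078 bp, so this stretch is a larger part of their searched region. The part of gene length in the difference was not tested.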

How the data were processed

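ATAC-seq libraries 1 to 3 (roots, 14 days, 61-bp single-end reads) form 1 group. The authors mapped the reads onto TAIR10 (bowtie, single positions only), removed duplicates with SAMtools and called peaks in each library with MACS2, and their versions are not given in the sources used here. The authors deposited read counts over 100-bp windows every 25 bp, not scaled, with empty windows left out. The deposited peak lists give a score (not used), an enrichment ratio over background, and p-value and q-value as −log10. A Tn5 cut-site shift of the counted reads is not stated.

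Genes came from RefSeq TAIR10.1, with the gene's 5′ end as the TSS. Each read fell in 6.27, 6.34 or 6.28 windows in libraries 1, 2 and 3, so the window sums of 61786860, 64805459 and 113785786 correspond to 9850039, 10223285 and 18130442 reads. Signal was divided by each library's mean over the 5 nuclear chromosomes, empty windows included, and overlap with peaks was counted from 1 bp. Uniqueness used exact 61-bp matches, and bwa 0.7.19-r1273 with up to 2 mismatches, over nuclear and organelle sequences. Analysis used Python 3.11.15, numpy 2.4.6, scipy 1.17.1 and matplotlib 3.10.9, and the signal and uniqueness steps were tested on simulated data. Counting intervals are 95% exact Poisson intervals on estimated reads.

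Every member is named in its family's account, with library values for the highest and lowest of each family, the RBCS genes, PSBO2 and contrasting paralogs. Members and lists were chosen with earlier results of these data known. The RNA-seq of the study was not analysed here. Alternatives covered the window, scaling, start site, peak rule and leaving out a library.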

Additional observations from a re-analysis of the deposited data

How the results depend on the processing

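The members' median promoter signal, 1.49, became 1.67 within 200 bp of the TSS, 1.39 over the upstream 400 bp, 1.66 over the downstream 400 bp, and 1.30 from 1000 bp upstream to 400 bp downstream. The medians of all protein-coding genes in the same regions were 1.51, 1.34, 1.30 and 1.29. Scaling to the median promoter gave 1.10, the mean over members 1.66, and leaving out members under 80% unique with 2 mismatches (an alternative chosen after seeing the data, which removed PSBS) 1.54. Requiring a −log10 q of at least 5 left 14 members with a peak in all 3 libraries and 20 with none in any, where all peaks gave 24 and 9; the shares of protein-coding genes were 32.7% and 40.8%.

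Without 1 library in turn, the median was 1.47 to 1.51. Without libraries 1, 2 and 3 in turn, members with a peak in every remaining library numbered 33, 24 and 24. The shares of protein-coding genes were 60.9%, 53.2% and 54%. Members with none numbered 9, 12 and 10, against 27.7%, 33.2% and 29.9% of protein-coding genes. Members above the library mean numbered 32 to 34, where the share of protein-coding genes with all 3 libraries was 63.3%. Members above the median of protein-coding genes numbered 22, 23 and 23, against 45.6%, 46.6% and 45.3% of protein-coding genes. The count of 33 arose without library 1, which has the fewest peaks. The remaining 45 of 54 alternative values for these results stayed within the spread between libraries or within 1.5 times the count. Start sites chosen as the most downstream annotated one, and peaks of the 3 libraries required to overlap, were also added after seeing the data. The window moved LHCA3, LHCB2.1, PSAD1, PSAL, PSBQ2, PSBS, PSBY, RBCS1B and RBCS3B by over 1.5 times. No paired analysis was possible because all libraries belong to 1 group. Library 2 held as few as 12 estimated reads in a member's window, so differences among the lowest members are limited by depth.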
